A study of Sus scrofa with 10 samples.

Results

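The mitochondrial ribosomal protein genes were examined in longissimus lumborum muscle of 2 Portuguese pig breeds, with particular attention to MRPL40, a protein of the large subunit. Members were the genes of the deposited table whose symbol is MRPL or MRPS followed by a digit, which gave 64 of 25880 rows, 40 named MRPL and 24 named MRPS. Only 14857 rows could be paired with a symbol, so a member without one would have been missed. The proteins of the mitochondrion that are named otherwise, such as DAP3, form a list of their own and are described last. MRPL40 is among the genes that the study listed for a difference between these same pigs, so its values are not independent evidence of a breed difference.

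The groups were 5 Alentejano (AL) and 5 Bisaro (BI) pigs, written Bísaro in the study, with 1 library per pig and no pooling. All 10 were purebred castrated males, reared free range, fed commercial diets individually and slaughtered near 150 kg, which the labels call carcass weight and the study live weight. Neither breed received a treatment, ages are not given in the sources used here, and no sequencing date or batch is named. RNA was sequenced as stranded paired-end mRNA libraries, and values are normalised counts, that is, reads counted per gene divided by the size factor of the pig.

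Mitochondria have a ribosome of their own, which translates the few membrane subunits of the respiratory chain that the mitochondrial genome encodes. All its proteins are encoded in the nucleus, made in the cytosol and imported, and are then assembled with mitochondrial rRNA into a large subunit, which joins amino acids, and a small subunit, which reads the mRNA. Part of the family descends from bacterial ribosomal proteins and part has no bacterial counterpart. Oxidative muscle fibres are rich in mitochondria and depend on this ribosome for the respiratory chain.

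Between 2298045 and 3343194 reads were counted on genes per pig, on 9112 to 10308 genes. The study reports far more sequenced reads per sample, nearly all of them aligned. Why so few were counted on genes was not tested. A count of 3 reads, used as the floor and covering counting error only, equalled a normalised count of 2.47 to 3.39. The tissue label was checked against a list of 14 skeletal muscle markers, of which 7 could be matched. All 7 averaged at least 10. Their summed level was 17931 to 37071 in AL and 32246 to 51237 in BI, so that the breeds overlapped and the lowest sum was that of an AL pig. Among the 13 protein genes of the mitochondrial genome, ND6, the only one on the minus strand, averaged 52623, while the 12 on the plus strand averaged 15.6 to 2556. The strand setting of the counting is not stated in the sources used here. Which strand the reads on a member came from was not tested. A count on a member is therefore not shown to be the level of its own mRNA. Overlaps with genes of the other strand are given beside the levels.

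Most of the family had few reads, and the limit on strand given above applies to these levels. The median member had a mean normalised count of 2.45 over the 10 pigs, 38 of the 64 averaged under 3, and 20 averaged under 1. At the other end 16 members averaged at least 10 and 6 at least 50. MRPL39, a large subunit protein, had no read in any pig, and 29 members had a read in all 10. The low level was shared by both subunits, with a median of 2.33 for the 42 large subunit and 2.53 for the 22 small subunit members (MRPS30 and MRPS18A were counted as large subunit proteins despite their names). It was shared too by the 36 members classed with a bacterial homologue, at a median of 2.45. The 28 classed as specific to mitochondria had a median of 2.32. Of the MRPS18 genes, MRPS18C was classed among the 36, and MRPS18A and MRPS18B among the 28. The members that averaged at least 10 were 6 of the 36 and 10 of the 28.

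**Figure D1:**
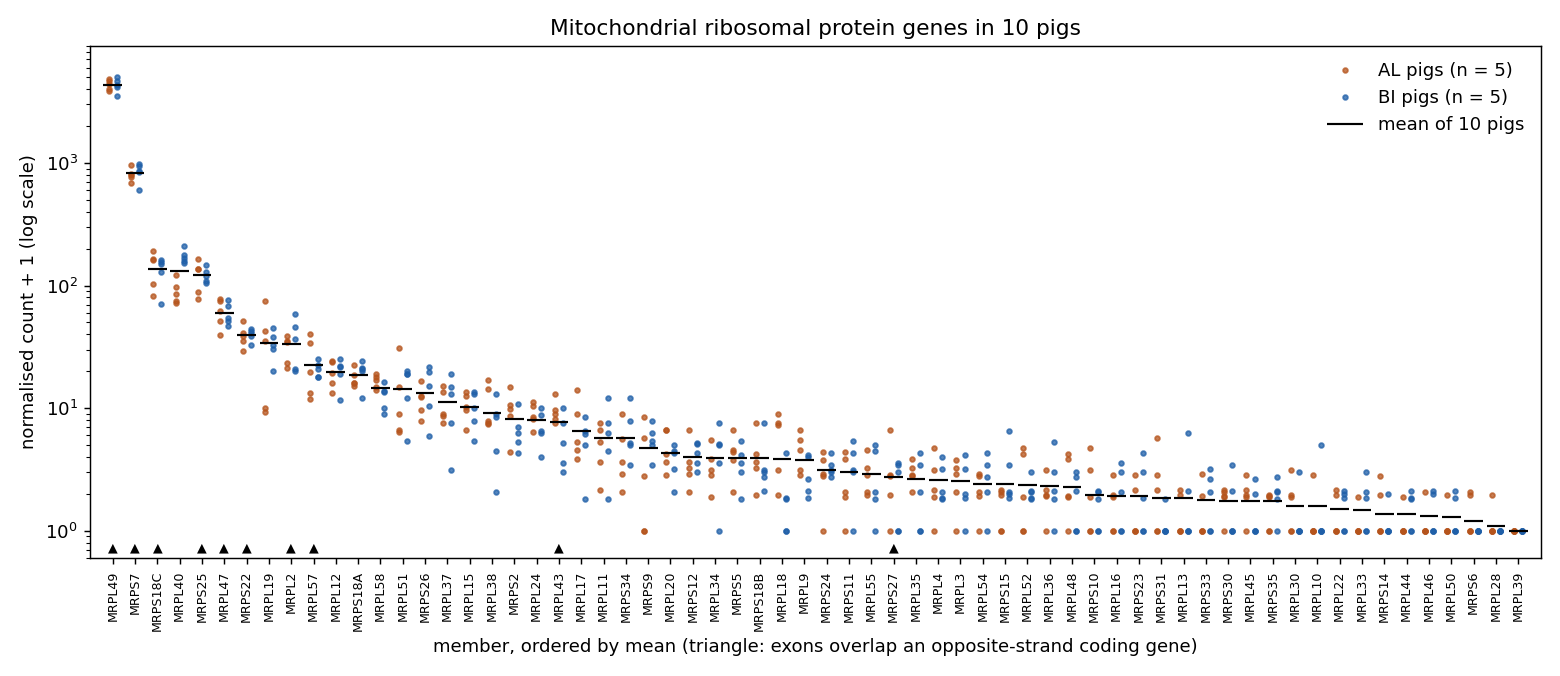
Normalised count plus 1 on a log scale for the 64 members, ordered by their mean, with 1 point per pig (AL and BI, n = 5 each) and a black line at the mean of the 10 pigs; a triangle marks exons that overlap a coding gene of the other strand. MRPL49 and MRPS7 stand above the rest, most members lie near 0, and MRPL40 is the member whose AL and BI points separate.

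Family reads numbered 4951 to 7833 per pig, or 0.195 to 0.251% of all reads counted. The share was 0.228% ± 0.018 in AL against 0.216% ± 0.0196 in BI (SD, n = 5 each), so the breeds overlapped. A single gene, MRPL49, took 70.5 to 77.7% of the family reads in each pig. Any sum over the family is therefore mostly a measure of MRPL49.

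Levels of different genes were compared per kilobase of exon, with exon lengths of RefSeq. On this scale MRPL49 was highest, at 1816 normalised counts per kb, followed by MRPS7 at 590, MRPL40 at 136, MRPS18C at 97.7 and MRPL47 at 34.3. MRPS25, which came next after MRPL40 by normalised count, has longer exons and reached 30.1 per kb.

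MRPL49 (ENSSSCG00000013001), a large subunit protein without bacterial counterpart, lies on chromosome 2 from 7066514 to 7071812 on the minus strand of Sscrofa11.1. Its normalised counts were 3883, 4669, 4019, 4370 and 4792 in AL44, AL46, AL49, AL52 and AL63. In BI25, BI34, BI36, BI37 and BI42 they were 4124, 4645, 4975, 3501 and 4343. The lowest and the highest value were both BI pigs, and the breeds overlapped throughout. Of its 2385 exonic bases, 660 are shared with genes of the plus strand, 556 with FAU, which encodes a ubiquitin-like protein fused to a protein of the cytosolic ribosome, and 104 with SYVN1, a ubiquitin ligase of the endoplasmic reticulum. FAU averaged 405 and SYVN1 79.6 normalised counts.

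MRPS7 (ENSSSCG00000035134), which binds the rRNA in the head of the small subunit, lies on chromosome 12 from 6052109 to 6055669, also on the minus strand. It had 682, 958, 819, 767 and 794 normalised counts in the AL pigs, in the order used for MRPL49. In the BI pigs it had 853, 835, 979, 602 and 943. The BI values spread more widely than the AL values and enclosed them. GGA3, a clathrin adaptor of the plus strand, covers 1238 of the 1396 exonic bases of MRPS7. On GGA3 itself 1 read was counted in all 10 pigs. The part of GGA3 in the counts on MRPS7 was not tested. MIF4GD, a translation cofactor that shares 95 bases, averaged 12.4.

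In MRPS18C, MRPS25 and MRPL47 the breeds overlapped widely. MRPS18C (ENSSSCG00000038042, chromosome 8, 135019702 to 135026719, minus strand), one of the mitochondrial relatives of a bacterial small subunit protein, had 189, 102, 160, 164 and 81.4 normalised counts in AL and 160, 69.4, 149, 155 and 129 in BI. MRPS25 (ENSSSCG00000034318, chromosome 13, 69441100 to 69465912, plus strand), a small subunit protein specific to mitochondria, had 164, 87.4, 135, 134 and 76.9 in AL and 147, 104, 109, 118 and 128 in BI. MRPL47 (ENSSSCG00000011763, chromosome 13, 117626846 to 117656388, minus strand), a large subunit protein near the exit of the peptide tunnel, had 73.6, 50.2, 76.6, 60.5 and 38.5 in AL and 75.8, 52.9, 67.2, 50.1 and 45.4 in BI. Among the AL pigs AL46 and AL63 were the lowest and AL44 or AL49 the highest for all 3 genes, and the BI values lay within or near the AL range.

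Each of these 3 genes shares exonic bases with the other strand. MRPS18C shares 744 bases with ABRAXAS1, a scaffold of a DNA repair complex, and 310 with HELQ, a DNA helicase. MRPS25 shares 1115 with NR2C2, a nuclear receptor, and MRPL47 shares 465 with ACTL6A, a subunit of chromatin remodellers. The partners were measured at 399 normalised counts for ABRAXAS1, 16.0 for HELQ, 19.7 for NR2C2 and 127 for ACTL6A. Within AL, ABRAXAS1 and ACTL6A were highest in AL44 (520 and 188) and lowest in AL63 (234 and 66.7), as MRPS18C was.

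Overlap with a coding gene of the other strand went with level across the family. RefSeq annotates 63 members as protein coding (MRPS12 is given as a long non-coding RNA), and 10 of these share at least 100 exonic bases with a coding gene of the other strand. These 10 had a median normalised count of 48.8 and 8 of them averaged at least 10, while the 53 without such overlap had a median of 1.58 and 8 averaged at least 10. At least 50 was reached by 5 of the 10 and by 1 of the 53, which was MRPL40. The 2 members with overlap and a low level were MRPL43, at 6.68, and MRPS27, at 1.73. TWNK on the other strand, at 949 normalised counts, covers 1348 bases of MRPL43. PTCD2, at 43.1, shares 132 bases with MRPS27. The pattern was not particular to the family: over the 13650 coding genes matched to RefSeq, 29.1% of the 1543 with at least 100 bases of overlap averaged at least 50, against 5.82% of the 11583 without overlap, and the medians were 10.1 and 0.760. The part of strand assignment in these levels was not tested.

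**Figure D2:**
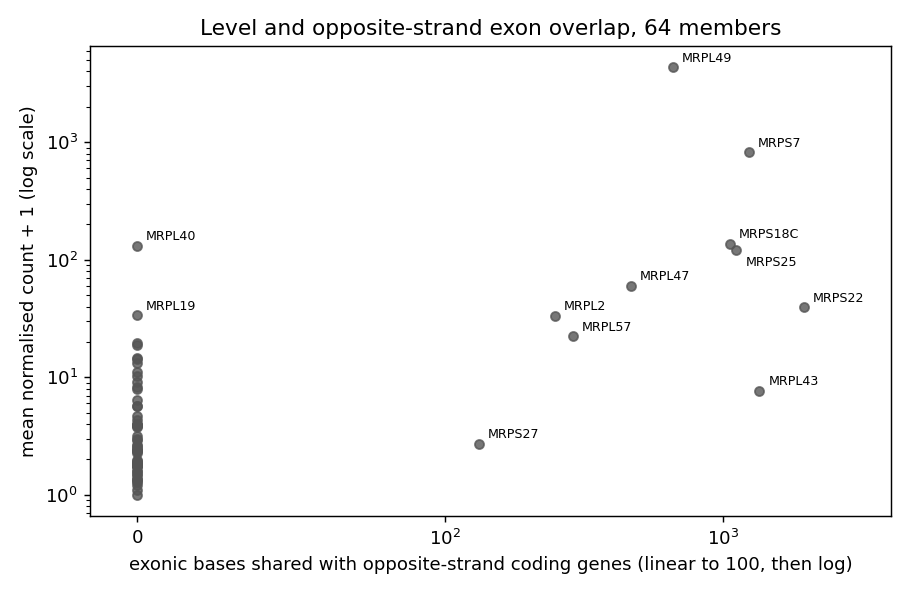
Mean normalised count plus 1 of the 10 pigs on a log scale against the exonic bases that each member shares with coding genes of the opposite strand (linear to 100, then log), 1 point per member. The members with overlap are named; MRPL40, at 131, is the highest of those without any.

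MRPL40 thus has the highest level among the members whose exons share no bases with a coding gene of the other strand. The strand that its reads came from was not tested either, and this limit holds for its breed difference too. MRPL40 (ENSSSCG00000034014) lies on chromosome 14 from 51102900 to 51105769 on the plus strand, with 5 exons and 962 exonic bases. Its protein belongs to the large subunit and has no bacterial counterpart. The bases just before its annotated start are shown because this is the member whose breeds separate, and they are printed 5′ to 3′ on the plus strand from the RefSeq genome Sscrofa11.1, with matches to the GC box letters GGGCGG, bound by SP1, in capitals on either strand. The last pair of these matches overlaps by a base.

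MRPL40, chr14:51102650-51102899: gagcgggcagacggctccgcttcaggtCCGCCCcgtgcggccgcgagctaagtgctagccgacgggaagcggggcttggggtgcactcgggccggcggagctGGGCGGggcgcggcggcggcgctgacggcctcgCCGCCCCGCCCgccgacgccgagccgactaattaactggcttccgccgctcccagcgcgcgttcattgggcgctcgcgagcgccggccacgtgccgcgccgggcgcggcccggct

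G and C make up 78.4% of these 250 bases. Motif letters were then counted on both strands from 250 bases before to 50 after each annotated start, in 62 members and 19501 genes in all. GGGCGG was found in 58.1% of the members and 50.6% of all genes. The letters CCGGAAG, bound by ETS factors such as GABPA, were found in 27.4% against 10.98%, GCGCANGCG, bound by NRF1, in 16.1% against 8.54%, and AAGATGGC, bound by YY1, in 8.06% against 2.48%. The window of MRPL40 held GGGCGG and none of the other letters. A match is a description of the sequence and no measure of binding.

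Some members face a neighbour start to start. Such a coding neighbour, without overlap, lay within 1000 bp of 18 members and within 300 bp of 17 of these. The share over all genes was not counted, so this is not shown to be particular to the family. The following stretches lie between the starts of a member and its neighbour and are shown as examples, from the same genome and on the strand of the member for MRPL30 and of MRPL46 for the other, with the NRF1 letters in capitals. MRPL46 and MRPS11 are a large and a small subunit gene that share 1 short stretch, and MITD1 encodes a protein of cell division.

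MRPL46 and MRPS11, chr1:191321952-191321989: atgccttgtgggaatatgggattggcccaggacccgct
MRPL30 and MITD1, chr3:55054440-55054474: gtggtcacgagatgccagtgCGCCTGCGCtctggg

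Few reads were counted on the members of these pairs. MRPS11 averaged 2.001, MRPL46 0.318 and MRPL30 0.600 normalised counts, and the reads in the 10 pigs together were 20, 3 and 6. MITD1 averaged 8.81 normalised counts. The 3 members were below the minimum set for the breed test.

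The breeds were compared for 15 members, those whose normalised counts summed to 50 or more within AL and within BI, of which 10 are large and 5 small subunit proteins. The fit was limma on log2(normalised count + 1) over all 3315 genes that passed this minimum, with Benjamini-Hochberg adjustment, and a positive log2 fold change means higher in AL. MRPL37 passed the minimum in BI alone and was left out.

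None of the 15 members passed an adjusted p of 0.05 in limma, where 1 of the 3315 genes did (0.0302%), namely INTS11, a subunit of the Integrator complex and no member of the family. MRPL40 was the only member with an unadjusted limma p under 0.05, which makes 6.67% of the members against 7.21% of all genes tested. It was also the only member whose 5 AL and 5 BI values did not overlap, again 6.67%, against 1.39% of all genes. DESeq2 on the recovered reads called MRPL40 alone among the members and 0.875% of all genes, edgeR called none of the members, and DESeq2 gave no adjusted p for MRPL58, MRPL51 and MRPS26. Lower in AL by sign alone were 10 of 15 members (66.7%) and 53.7% of all genes. The median log2 fold change was -0.06 over the 15 members and -0.05 without MRPL40, against -0.03 over all genes tested. By subunit it was -0.08 for the large and -0.06 for the small subunit members.

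**Figure D3:**
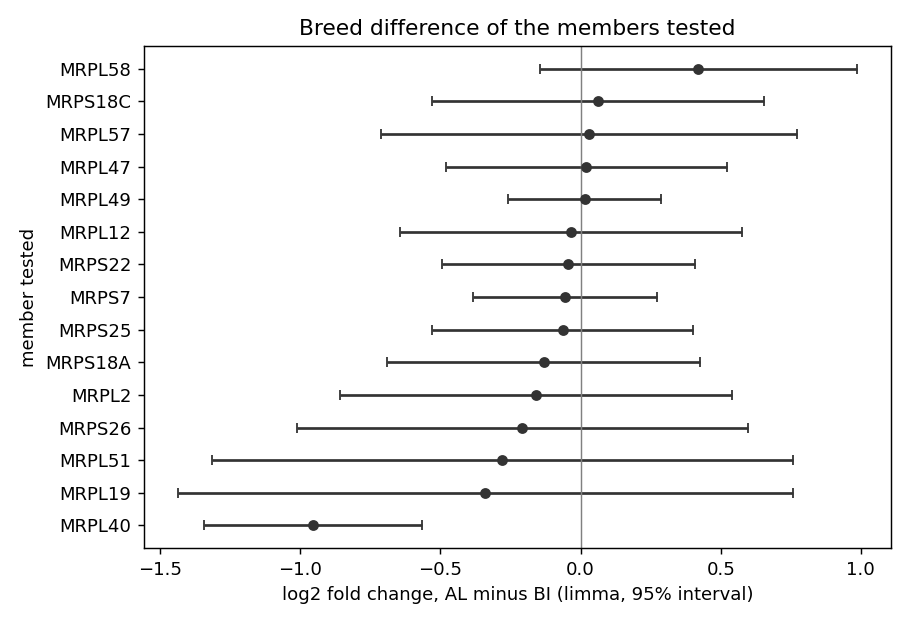
Log2 fold change, AL minus BI, of the 15 members tested, as points with 95% intervals from limma. MRPL40, at -0.95, is the member whose interval does not reach 0, and the other 14 lie between -0.34 and 0.42.

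The log2 fold change of MRPL40 was -0.95 (SE 0.18, 95% interval -1.34 to -0.57). Its normalised counts were 122, 74.4, 96.0, 71.2 and 83.7 in AL44, AL46, AL49, AL52 and AL63. In BI25, BI34, BI36, BI37 and BI42 they were 176, 159, 166, 208 and 151. The highest AL pig, AL44, lay below the lowest BI pig, BI42. The means were 89.4 ± 20.5 in AL against 172 ± 22.4 in BI (SD, n = 5 each), a ratio of 1.92. The limma p was 1.21e-04, second after that of INTS11 among the 3315 genes, and the adjusted p was 0.163 (limma, Benjamini-Hochberg). Over every division of the pigs into 5 and 5, the exact permutation p (two-sided) was 0.00794, the smallest that 5 against 5 can give, and 0.572 after Benjamini-Hochberg adjustment over all genes tested. DESeq2 on the recovered reads gave a log2 fold change of -0.95 with an adjusted p of 8.29e-04, and edgeR an adjusted p of 0.135, so the call depended on the tool. Without AL44, limma gave an adjusted p of 0.0223 at a log2 fold change of -1.07.

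Set against the rest of the family, MRPL40 showed the same separation. As a share of the family reads it was 1.18 to 2.23% in AL and 2.45 to 4.201% in BI. To take out the 2 dominant genes, MRPL40 was also divided by the sum of the members other than MRPL49 and MRPS7. On the log2 scale this ratio was -2.66, -2.95, -2.75, -3.33 and -2.58 in the AL pigs and -1.98, -1.86, -1.93, -1.64 and -1.96 in the BI pigs. It averaged -2.85 ± 0.30 in AL against -1.87 ± 0.14 in BI (SD, n = 5 each), without overlap. The sum of those other members was 641 ± 108 in AL against 628 ± 48.8 in BI (SD, n = 5 each), so the denominator overlapped between the breeds. No test is attached, since MRPL40 was chosen for its difference.

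The values of the genes around MRPL40 overlapped between the breeds. HIRA, a histone chaperone, starts 490 bp away on the minus strand and averaged 23.6 normalised counts, with a log2 fold change of 0.11 (SE 0.26). C22orf39, whose end faces that of MRPL40 at 1214 bp, had 6 reads in all 10 pigs. UFD1, which helps extract ubiquitin-marked proteins, lies 8088 bp away and had 8.68 ± 4.26 in AL against 13.9 ± 3.37 in BI (SD, n = 5 each), with overlap, and was below the minimum for the test. CDC45, a DNA replication factor 27341 bp away on the same strand, averaged 148, a level like that of MRPL40, with a log2 fold change of 0.09 (SE 0.25). AL63 was the highest pig for CDC45, at 242, and AL46 the lowest, at 91.1, so both extremes were AL.

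**Figure D4:**
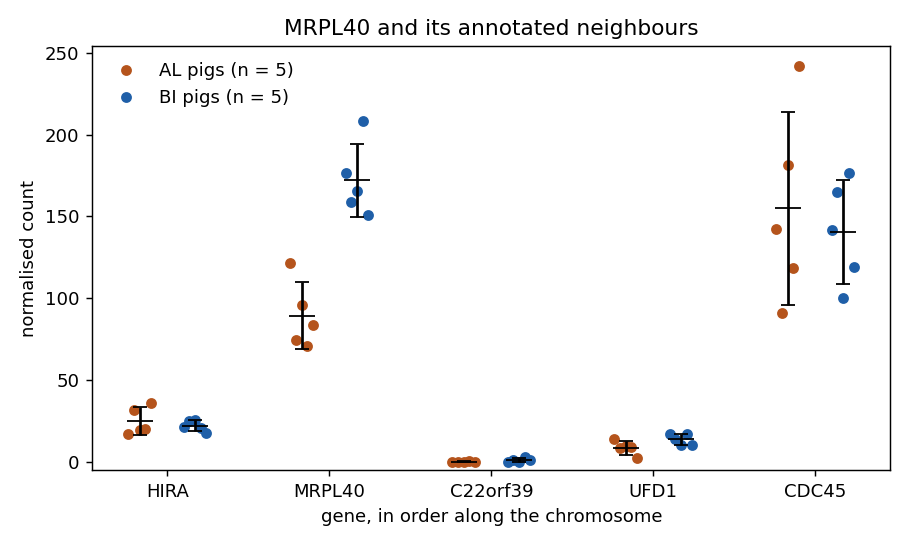
Normalised counts of MRPL40 and its annotated neighbours in order along the chromosome, with 1 point per pig and the mean and SD of each breed (n = 5) in black. The AL points of MRPL40 reach 122 and its BI points begin at 151, while AL and BI points overlap for the other 4 genes.

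Summed markers of other cell types are given here because bulk muscle cannot separate fewer cells of a type from less RNA per cell. The sum over the 7 matched skeletal muscle markers, of 17931 to 37071 in AL and 32246 to 51237 in BI, moved in the same direction as MRPL40, with overlap. Of 6 adipocyte markers 2 averaged at least 10, with a sum of 67.0 to 148 in AL and 66.5 to 175 in BI. PLIN4 averaged 89.6, while ADIPOQ and LEP, which define adipocytes, averaged 0.284 and 0.1101. The study excluded ADIPOQ and LEP from its RNA-seq analysis for low counts. By qPCR it found ADIPOQ higher in AL and LEP tending to be. The counts here are no measure of adipocyte content, and the limit on strand given above applies to all markers. The 6 fibroblast markers summed to 14.2 to 112 in AL and 19.0 to 43.3 in BI. The 5 leukocyte markers summed to 21.3 to 60.4 in AL and 7.71 to 33.8 in BI. That sum is nearly all CD68, at a mean of 26.7, with PTPRC at 0.316, CD79A at 0.193, CD163 at 0.0930 and CD3E at 0. The 4 endothelial markers summed to 4.32 to 16.7 and 2.20 to 13.2, and the 2 erythroid markers to 2.26 to 10.2 and 7.39 to 16.5. All these ranges overlapped between the breeds. Their part in the difference of MRPL40 was not tested.

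The counts on the abundant members were close enough between pigs to bound a breed difference in those counts. MRPL49, MRPS7, MRPS18C, MRPS25, MRPL47 and MRPS22 share exonic bases with genes of the other strand. The part of those genes in the counts was not tested. MRPL49 had a log2 fold change of 0.01 (SE 0.13, 95% interval -0.26 to 0.29), with 4347 ± 396 normalised counts in AL against 4318 ± 558 in BI (SD, n = 5 each). MRPS7 had -0.06 (95% interval -0.39 to 0.27), at 804 ± 101 (SD, n = 5) and 843 ± 147 (SD, n = 5). A difference of the size of that of MRPL40 lies outside both intervals. The intervals of MRPS18C (-0.53 to 0.65), MRPS25 (-0.53 to 0.40), MRPL47 (-0.48 to 0.52) and MRPS22 (-0.49 to 0.41) also exclude it, while those of MRPL19 (-1.44 to 0.76), MRPL51 (-1.32 to 0.76) and MRPS26 (-1.01 to 0.60) include it.

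Other tested members varied widely within breeds. MRPL19, a large subunit protein with a bacterial homologue (ENSSSCG00000021007, chromosome 3, 67604613 to 67611323, minus strand), had 41.5, 8.37, 34.5, 73.8 and 9.05 normalised counts in AL and 44.5, 31.9, 29.3, 19.0 and 37.0 in BI. AL46 and AL63 were far below the BI pigs and AL52 far above them, and the within-breed SD was 0.99 on the log2 scale, the widest of the 15. Its log2 fold change was -0.34 (SE 0.51) in limma, and 0.06 in edgeR and 0.05 in DESeq2, so the direction was not fixed. MRPL51, a large subunit protein whose start lies 7 bp from that of NCAPD2, a condensin subunit, had 30.2, 13.9, 5.39, 8.01 and 5.66 in AL and 18.1, 4.41, 19.0, 11.02 and 17.96 in BI, with a within-breed SD of 0.88. MRPS26, a small subunit protein, had 6.79 to 15.8 in AL and 4.94 to 20.7 in BI, with a within-breed SD of 0.61.

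MRPL58 (ENSSSCG00000034406) had the largest log2 fold change towards AL among the members, 0.42 (SE 0.26, 95% interval -0.15 to 0.98). It encodes a peptidyl-tRNA hydrolase that frees stalled mitochondrial ribosomes and is built into the large subunit. Its normalised counts were 16.0, 13.9, 12.9, 16.9 and 18.1 in AL and 9.06, 15.4, 12.9, 8.02 and 12.7 in BI. BI34 lay within the AL range and the other BI values lay below it, BI36 just under AL49. The limma p was 0.134 (adjusted 0.812, Benjamini-Hochberg) and the exact two-sided permutation p was 0.0397 (adjusted 0.632), so no difference was shown. MRPS18C, MRPL57, MRPL47 and MRPL49 were the other members above 0, at 0.06, 0.03, 0.02 and 0.01.

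On the lower side, MRPL40, MRPL19 and MRPL51 were followed by MRPS26 at -0.21 (SE 0.38) and MRPL2, a protein of the peptidyl transferase centre, at -0.16 (SE 0.33). With a pig left out, MRPL51 reached -0.61 (without BI34), from -0.28, and MRPS26 -0.50 (without BI25). MRPL2 had 37.8, 34.4, 33.4, 22.2 and 20.4 normalised counts in AL and 35.4, 45.2, 19.8, 57.1 and 19.0 in BI, and BI37 was the highest pig. It shares 247 exonic bases with KLC4, a kinesin light chain, which averaged 4.002. MRPL57, a small large-subunit protein that shares 287 bases with SKA3, a kinetochore protein at 539, had 10.8 to 39.6 in AL and 16.9 to 24.1 in BI. MRPS22, a small subunit protein that shares 1955 bases with COPB2, a coatomer subunit at 248, had 28.3 to 50.7 in AL and 31.9 to 43.1 in BI. MRPL12, which recruits translation factors at the stalk of the large subunit, had 12.3 to 23.2 and 10.7 to 24.3, and MRPS18A 14.03 to 21.5 and 11.2 to 23.1. Coding neighbours within 5 kb that share no exonic bases with the tested members included RSPH9, a radial spoke protein 344 bp from MRPS18A, at 948 normalised counts, HGS, an endosomal sorting protein, at 35.3 and SLC25A10, a mitochondrial carrier, at 9.09, both near MRPL12. NDUFB5, a complex I subunit whose start lies 22 bp from that of MRPL47, averaged 0.316. CUL7 near MRPL2, ZNHIT2 and TM7SF2 near MRPL49, ZDHHC20 near MRPL57 and CDR2L near MRPL58 averaged 0.494 to 5.25. GCFC2 overlaps the span of MRPL19 but none of its exons, and averaged 2.80. GNRH2, a hormone gene on the strand of MRPS26, shares 7 exonic bases with it and was not matched to a value. The long non-coding LOC110255971, on the strand of MRPL58, and LOC100622386, whose start lies 67 bp from that of MRPL37, were not matched to a value either.

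The 49 members that were not tested had 632 reads in AL and 586 in BI together. None of them had breeds without overlap. The highest was MRPL37, at 9.71 ± 3.31 in AL against 10.6 ± 6.28 in BI (SD, n = 5 each), where BI42 had 2.11. With so few reads the others were described by their levels alone.

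The neighbours of the family in function were taken from 6 lists of genes for mitochondrial ribosome assembly, translation factors, aminoacyl-tRNA synthetases, transcription and RNA processing, ribosomal proteins named otherwise, and regulators. Of 88 genes 85 were matched and 26 were tested. None passed an adjusted p of 0.05 in limma or DESeq2, which called 0.0302% and 0.875% of all genes tested. An unadjusted limma p under 0.05 was found for 1 of the 26, with the higher mean in BI, and for 7.21% of all genes. The median log2 fold change over the 26 was -0.06, against -0.03 over all genes. Of the tested genes 5 were in assembly, 6 among translation factors, 6 among synthetases and 3 in each of the remaining lists.

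The gene with the unadjusted p was MPV17L2, an assembly factor of the large subunit, at 175 ± 22.9 normalised counts in AL against 225 ± 35.6 in BI (SD, n = 5 each), with a log2 fold change of -0.36 (SE 0.16) and an adjusted p of 0.634 (limma, Benjamini-Hochberg). Also in assembly, TFB1M, which methylates the small subunit rRNA, had -0.30 (SE 0.31), while DHX30, an RNA helicase, had 0.21 (SE 0.15) and the GTPase MTG1 0.12 (SE 0.26). Among translation factors the ribosome-bound GTPase GUF1 had -0.64 (SE 0.70) and the initiation factor MTIF2 -0.12 (SE 0.14), while OXA1L, which inserts new proteins into the inner membrane, had 0.22 (SE 0.33) and the recycling factor GFM2 0.21 (SE 0.32). Among the synthetases FARS2, for phenylalanine, had -0.46 (SE 0.31) and KARS1, for lysine, -0.16 (SE 0.15).

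In transcription and RNA processing, PNPT1, an RNA-degrading enzyme, had -0.25 (SE 0.51), PRORP, the nuclease of tRNA processing, 0.19 (SE 0.27) and POLRMT, the mitochondrial RNA polymerase, 0.08 (SE 0.20). Among the ribosomal proteins named otherwise, PTCD3, of the small subunit, had 0.53 (SE 0.27), with 54.7 ± 20.4 normalised counts in AL against 35.8 ± 5.95 in BI (SD, n = 5 each). DAP3, also of the small subunit, had -0.09 (SE 0.34), and GADD45GIP1, of the large subunit, -0.04 (SE 0.13). Among regulators GABPA had -0.07 (SE 0.13), YY1 -0.0032 (SE 0.19) and the nuclear receptor ESRRA 0.05 (SE 0.24). The differences of the genes named in these lists did not pass the test after adjustment.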

How the data were processed

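The authors used Trim Galore 0.5.0 for trimming, HISAT2 2.1.0 and SAMtools 1.9 for alignment to Sscrofa11.1 (Ensembl release 94), and HTSeq 0.11.1 for counting. The signal values deposited by the authors are the resulting gene counts scaled by size factors of DESeq2, 1 factor per pig. The log2 fold changes, the scores (standard errors and Wald statistics) and the p-values that the authors deposited for their own comparison were not used. Whole reads were recovered by dividing by the smallest value above 0 in each pig, which gave whole numbers within 0.01 for 100% of the values. Per-pig columns without a sample numbered 0.

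Genes whose normalised counts summed to 50 or more within AL and within BI were fitted with limma 3.58.1 (R 4.3.3, trend, log2(value + 1), a scale that understates changes of low genes), AL against BI without covariate, with Benjamini-Hochberg adjustment. Alternatives were pseudocounts of 0.5 and 5, other minimums, a threshold of 0.1, limma-voom, library sizes that leave out the 10 highest genes, edgeR 4.0.16, DESeq2 1.42.0 and each pig left out. On simulated data (3315 genes, 200 changed) limma recovered 47% of those set to a log2 difference of 1 and 100% of those set to 2. It also called 10 unchanged genes. Every simulated gene had the same dispersion, while the spread of the members differed, so these rates do not give the power for the members. Positions and exons are those of RefSeq release 106, matched by symbol, while the counts rest on Ensembl models.

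Named were MRPL40, members with an unadjusted p under 0.05 or without overlap, the 5 largest changes each way, the 5 highest levels, also per kb, the 3 widest spreads, annotated neighbours of described members within 5 kb (MRPL40: 50 kb), and the 2 largest changes each way in each list. MRPL43, MRPS27, MRPS11, MRPL46 and MRPL30 fall outside this rule and were named after their values were seen. Members and lists were chosen with earlier results of these data known.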

Additional observations from a re-analysis of the deposited data

How the results depend on the processing

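The sign of MRPL40 was lower in AL under all 21 alternatives, from -1.07 (without AL44) to -0.88 (without AL52), with adjusted p from 7.04e-04 to 0.496 and 4 of 21 under 0.05. These were no minimum (-0.95, adjusted p 0.0266), DESeq2 (-0.95, 8.29e-04), DESeq2 on genes summing to 50 or more in AL or in BI (the wider set), chosen after seeing the data (-0.95, 7.04e-04), and without AL44. The members called were 1 under each of these, MRPL40, and 0 otherwise. Over all genes, the count of 1 became 0 when both breed means had to reach 50, 40 with no minimum, 29 with DESeq2 and 55 with DESeq2 on the wider set, and leaving out a pig gave 0 (without BI36) to 17 (without AL44), with 4 without BI37. The cause was not tested.

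For the other 14 members, 0 of 272 alternatives had an adjusted p under 0.05, and 10 members changed sign somewhere. MRPL19 turned to 0.060 with edgeR, 0.053 with DESeq2 and 0.053 with DESeq2 on the wider set. With a pig left out the log2 fold change ran from -0.058 to 0.069 for MRPL49, -0.17 to 0.0025 for MRPS7, -0.15 to 0.24 for MRPS18C, -0.19 to 0.079 for MRPS25, -0.078 to 0.17 for MRPL47, -0.15 to 0.056 for MRPS22, -0.73 to 0.021 for MRPL19, -0.34 to 0.042 for MRPL2, -0.20 to 0.24 for MRPL57 and -0.22 to 0.091 for MRPL12. Where they still passed the minimum with a pig left out, it ran from -0.61 (without BI34) to -0.076 (without AL49) for MRPL51, -0.50 (without BI25) to -0.16 for MRPS26, -0.29 (without BI36) to -0.048 (without BI34) for MRPS18A and 0.31 to 0.48 for MRPL58.

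With 2298045 to 3343194 reads on genes per pig, members near the floor of 3 reads were tested only where no minimum was set, and there MRPL40 alone was called. No paired analysis was possible because the pigs of the breeds are different animals with numbers that the labels do not share.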

Other observations

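The mitochondrial ribosome translates the 13 protein genes of the mitochondrial genome, and their levels were described as well, without a test. The limit on strand given above applies here too. The counts therefore do not rank the transcripts of ND6, on the minus strand, and of the plus strand genes. ND6, a subunit of complex I, had 48886 ± 20592 normalised counts in AL and 56360 ± 17779 in BI (SD, n = 5 per breed). COX1, the core subunit of cytochrome oxidase, had 570 ± 90.3 and 647 ± 150, and ATP6, a subunit of ATP synthase, had 690 ± 271 and 898 ± 106.02. ND5 and ND4, both of complex I, had 2936 ± 1955 and 1662 ± 1117 in AL, where the SD exceeded that in BI (2175 ± 501 and 1278 ± 159). CYTB, of complex III, had 642 ± 171 in AL and 527 ± 141 in BI. Each of these differences between breed means was smaller than the larger of the 2 SDs.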
